A study of Mus musculus with 5 samples.

Results

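The cells described here are a small group of B-lineage barcodes from the bone marrow of 1 mouse at day 3. Of the 4870 day 3 barcodes with at least 500 unique molecular identifiers (UMIs) and at most 10% mitochondrial UMIs, 99 held at least 1 UMI each of *Ebf1*, *Cdkn2a* and *Tmem119*. They were 2.03% of these barcodes (exact Clopper-Pearson 95% interval 1.66 to 2.47%) and are called members below. The 5 libraries together held 29679 such barcodes, and the same rule found 0 members at days 0, 6, 9 and 12. Those libraries had 6259, 6041, 6944 and 5565 barcodes, so a count of 0 allows shares of up to 0.0479%, 0.0497%, 0.0432% and 0.0539% when the limit is set at 3 barcodes of the total, and up to 0.0589%, 0.0610%, 0.0531% and 0.0663% by the exact interval.

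Each of the 5 mice was an 8-week-old C57BL/6J animal, not irradiated, that received 1000 BCR-ABL1 pre-B acute lymphoblastic leukemia cells into the tail vein. One mouse was taken straight after the injection (day 0) and 1 each at days 3, 6, 9 and 12, so day and animal cannot be told apart. The sex of the recipients is not given in the sources used here. Flushed marrow plugs were pooled with cells freed from crushed femurs and tibias by collagenase and DNase, red blood cells were lysed, and 10x Genomics 3′ v2 libraries held 33425695 to 43554233 UMIs. The labels do not say which barcodes came from injected cells, and no row of the gene tables is named for the BCR-ABL1 fusion.

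*Ebf1* encodes a transcription factor that commits progenitors to the B lineage. *Cdkn2a* encodes 2 unrelated inhibitors of cell division, p16Ink4a and p19Arf, from different first exons, and reads taken at the 3′ end do not tell these apart. *Tmem119* encodes a membrane protein known from osteoblasts and microglia. Precursor B cells divide rapidly in the marrow under a pre-B cell receptor, in which the products of *Vpreb1*, *Vpreb2* and *Igll1* stand in for the light chain, and they gain light chains and MHC class II proteins as they mature.

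The members were chosen on UMIs of 3 genes, so the values of those genes are a description. *Cdkn2a* (ENSMUSG00000044303, chr4:89274471-89294653, minus strand) had 1 UMI in the lowest member, a median of 5 and 20 in the highest. *Tmem119* (ENSMUSG00000054675, chr5:113793729-113800516, minus strand) had 1, 4 and 33 UMIs at the same 3 points. *Ebf1* (ENSMUSG00000057098, chr11:44617317-45008091, plus strand) had 1, 21 and 63. Of the members, 10 passed on a single *Cdkn2a* UMI, 13 on a single *Tmem119* UMI and 2 on a single *Ebf1* UMI, whereas 79 held at least 2 of both *Cdkn2a* and *Tmem119*.

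The 99 members carried 554 of the 655 *Cdkn2a* UMIs of all day 3 barcodes past the limits and 463 of the 576 *Tmem119* UMIs. The other 4 libraries held between 5 and 9 *Cdkn2a* UMIs and between 37 and 63 *Tmem119* UMIs in all barcodes with at least 500 UMIs, against 663 and 588 at day 3. A further 23 day 3 barcodes held *Ebf1* and *Cdkn2a* without *Tmem119*, and 12 held *Ebf1* and *Tmem119* without *Cdkn2a*. Just inside the limits, the shallowest members had 1390 and 3469 UMIs and the most mitochondrial had 8.72% and 6.84% mitochondrial UMIs. Just outside, 1 barcode with all 3 genes had 10.4% mitochondrial UMIs and 11313 UMIs in all.

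The members were deep barcodes. They had a median of 21833 UMIs (1390 to 54807) and 3820 detected genes, against 4397 UMIs and 1037 genes over all day 3 barcodes past the limits. They were compared with 290 other day 3 barcodes that held *Ebf1* and *Vpreb3* and no UMI of *Cdkn2a* or *Tmem119*. These comparison barcodes had a median of 2718.5 UMIs, and 105 of them took at least 2% of their UMIs from the neutrophil genes *S100a8* and *S100a9*, against 6 members. Every barcode was therefore thinned at random to 2000 UMIs, which left 98 members and 184 comparison barcodes.

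A second comparison, chosen after these depths were seen, kept only barcodes with at least 8000 UMIs and under 2% neutrophil UMIs, thinned to 8000. It set 91 members beside 39 comparison barcodes, called large comparison barcodes below, with a median of 11422 UMIs. No doublet caller was run, and the part of depth and of mixed droplets in the differences was not tested. Levels are UMIs of a gene per 10000 UMIs, and log2 ratios are members over comparison barcodes with 0.5 added to both levels. Cells of 1 mouse are not replicates, so no test was possible, and the 95% intervals (exact Poisson for levels, exact Clopper-Pearson for shares) cover counting error only.

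Of 2201 genes with at least 30 thinned UMIs over both groups, 83 were higher in the members by a log2 ratio of at least 1 (3.77%) and 202 were lower by as much (9.18%). In the comparison of large barcodes, 27 of 3510 genes were higher (0.769%) and 88 were lower (2.51%). A gene can pass the filter through the group in which it is high, and the median log2 ratio over all genes was −0.02 in the first comparison and −0.03 in the second.

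The members carried B-lineage genes that the rule did not use. *Cd79a*, a signalling chain of the B cell receptor, had a UMI in all 99 members and in 66.3% of them at 2000 UMIs, against 84.2% of comparison barcodes and 4.62% of neutrophil barcodes of the same library. Neutrophil barcodes had at least 2% of UMIs from *S100a8* and *S100a9*, a UMI of the granule gene *Ngp* and none of *Ebf1*, and stand for cells that should lack B-lineage RNA (median 3579 UMIs before thinning). *Pax5*, which maintains B cell identity, was in 21.4%, 22.3% and 0.127% of these barcodes. Of the 4 T cell and 5 progenitor markers listed, only *Cd3e* and *Kit* had 0 UMIs in the members. These 2 lists had 1 and 18 thinned UMIs there.

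Of the 21 B-lineage transcription factors listed, 17 passed the filter, 0 were higher and 6 were lower, with a median log2 ratio of −0.66. *Spib* (log2 ratio −2.35), *Bach2* (−1.96), *Sox4* (−1.54), *Irf4* (−1.31), *Irf8* (−1.25) and *Spi1* (−1.07) were the 6. *Irf4* and *Irf8* act where pre-B cells leave the cycle. Between large barcodes 2 of the 16 that passed the filter were lower, *Spib* (−1.20) and *Spi1* (−1.04), and *Bach2* (−1.16) missed the filter. *Pax5* (0.23), *Ebf1* (−0.12) and *Tcf3* (−0.32) lay nearer to 0. Both groups were required to hold *Ebf1*, so its ratio depends on that choice and is a description.

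The 15 genes with the largest and the 15 with the smallest log2 ratio are named below for their size in this comparison, so their values are a description. The upper ones were unlike one another in function. *Myl10* (ENSMUSG00000005474, chr5:136693146-136701094, plus strand), which encodes a myosin light chain, had a UMI in all 99 members. Its level was 5.11 in the lowest member, 18.2 at the median and 37.5 in the highest, whereas 23 of the 39 large comparison barcodes had none and the highest of them had 10.6. At 2000 UMIs the level was 19.0 (17.1 to 21.1) in members and 0.625 (0.396 to 0.938) in comparison barcodes, a ratio of 30.4 (19.99 to 48.6). The members and the large comparison barcodes overlapped between 5.11 and 10.6, and the highest of the other comparison barcodes, most of which had no UMI, reached 26.7.

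*Rnase12* (ENSMUSG00000068407, chr14:51056698-51057661, minus strand), a member of the ribonuclease A family, had a UMI in 96 members. Its levels were 0, 4.78 and 16.5 at the lowest, median and highest member, and 35 of 39 large comparison barcodes had none. With 96 thinned UMIs in members and 2 in comparison barcodes the ratio was 90.1 (24.3 to 755). At 2000 UMIs *Rnase12* was in 59.2% of members (48.8 to 69.0%), 1.09% of comparison barcodes and 0.593% of neutrophil barcodes. Of the 9 ribonuclease genes listed, 5 had 0 UMIs in the members, and *Rnase6*, of the same family, had a log2 ratio of −0.90.

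*Mt1* and *Mt2* encode metallothioneins, small proteins that bind zinc and copper, and were high in the same barcodes. *Mt1* (ENSMUSG00000031765, chr8:94179082-94180327, plus strand) was in all 99 members, at 1.84, 10.1 and 33.0 in the lowest, median and highest. *Mt2* (ENSMUSG00000031762, chr8:94172664-94173568, plus strand) was in 89 members, at 0, 2.36 and 16.4. The 2 levels varied together over the 99 members (Pearson r = 0.677, Spearman rho = 0.664), which share 1 library, whereas *Myl10* and *Mt1* did not (r = 0.0634, rho = 0.110).

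Against comparison barcodes the ratio was 15.9 (10.5 to 25.2) for *Mt1* and 20.03 (8.71 to 56.6) for *Mt2*. Both stayed high between large barcodes, with log2 ratios of 2.89 and 2.80. Of the 7 other genes of the metal list, *Mt3* had 0 UMIs in the members, and *Slc30a5*, a zinc transporter and the only one past the filter, had a log2 ratio of −0.33. *Mtf1*, the factor that senses zinc, had 26 UMIs in 21 members and a log2 ratio of −0.21.

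The promoters of both genes are shown because the 2 genes lie side by side, were high together and hold several copies of the metal response core. The windows run from 250 bases before to 50 after the annotated start on the plus strand (RefSeq, build GRCm38.p6), at chr8:94178839-94179138 for *Mt1* and chr8:94172368-94172667 for *Mt2*. Capitals mark each match, on either strand, to TGCACNC or TGCGCNC, and no matches overlap.
Mt1: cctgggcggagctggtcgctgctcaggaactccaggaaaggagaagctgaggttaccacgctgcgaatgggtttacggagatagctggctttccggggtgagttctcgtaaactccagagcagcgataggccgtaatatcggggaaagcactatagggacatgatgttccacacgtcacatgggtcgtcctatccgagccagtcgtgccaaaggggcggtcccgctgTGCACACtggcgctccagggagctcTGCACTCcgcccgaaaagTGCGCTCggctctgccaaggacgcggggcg
Mt2: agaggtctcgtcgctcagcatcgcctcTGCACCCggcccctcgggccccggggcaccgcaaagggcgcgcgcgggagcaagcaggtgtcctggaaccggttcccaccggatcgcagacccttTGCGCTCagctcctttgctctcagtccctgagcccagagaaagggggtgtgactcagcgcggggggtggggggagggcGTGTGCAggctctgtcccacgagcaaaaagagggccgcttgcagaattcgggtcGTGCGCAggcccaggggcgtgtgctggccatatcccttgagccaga
The core occurs 3 times in the first window and 4 times in the second. Of 32851 promoter windows of the same length, 25.7% held at least 1 match and 1.97% held 3 or more. The 15 genes with the largest log2 ratios and the 2 rule genes *Cdkn2a* and *Tmem119* made 17, of which 14 had a window, matched by symbol. Of the 14, 6 held at least 1 match to the core and 2, *Mt1* and *Mt2*, held 3 or more. *Myl10* had 3 windows and *Cdkn2a* 2, which were counted together. These counts are therefore per gene, while the shares above are per window, and the 2 are not directly comparable. *Srm*, *Cyb5a* and *Tmem119* had no window. A match is only a string of letters, and none of these counts says whether a factor was bound.

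**Figure D1:**
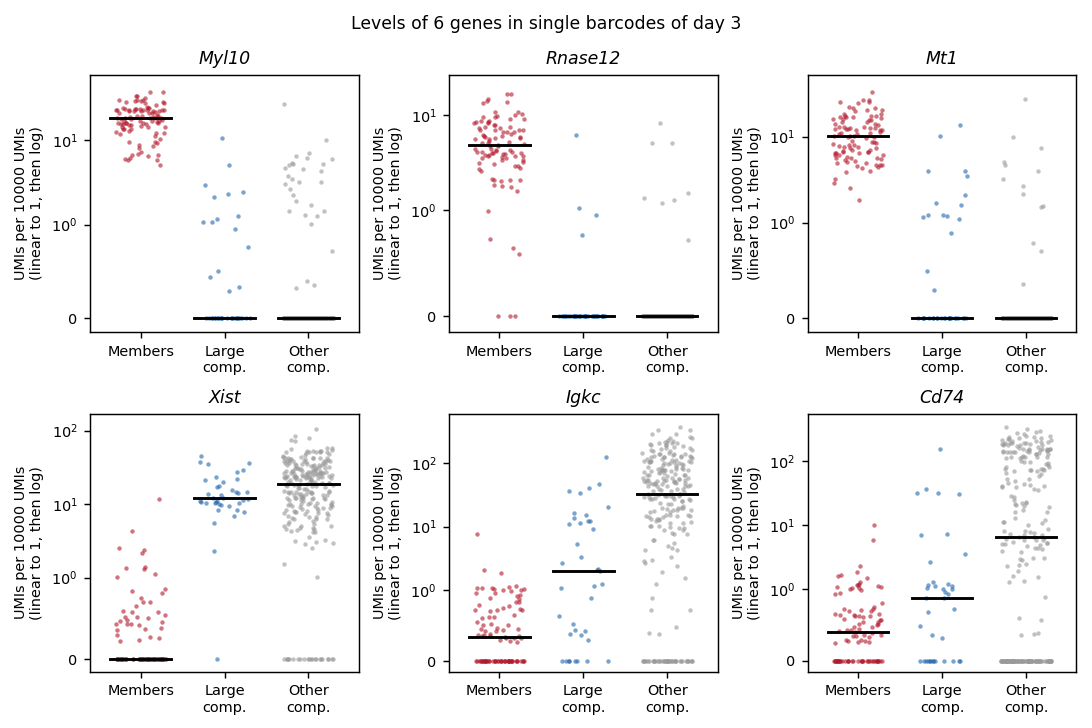
Level of 6 genes (vertical axis, UMIs per 10000 UMIs, linear up to 1 and logarithmic above) in single day 3 barcodes, 1 point each, without thinning; bars are medians over 99 members, 39 large comparison barcodes and 251 other comparison barcodes. *Myl10*, *Rnase12* and *Mt1* have medians of 18.2, 4.78 and 10.1 in members and 0 in both other groups, while *Xist* has a median of 0 in members against 12.05 and 18.6.

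*Cisd1*, which encodes an iron-sulfur protein of the outer mitochondrial membrane, followed with a level of 5.92 (4.89 to 7.10) in members and 0.761 (0.506 to 1.10) in comparison barcodes, a log2 ratio of 2.35. It had a log2 ratio of 1.87 between large barcodes. *Cyb5a*, a cytochrome that carries electrons in the endoplasmic reticulum (1.64 and 1.72), and *Rgcc*, a regulator of the cell cycle (1.59 and 1.62), were as high in both comparisons. *Pnp*, an enzyme of purine salvage, was past the fold in both (1.54 and 1.05).

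Of the 15 genes with the largest ratios, 6 were within the fold between large barcodes. *Srm*, which makes spermidine, had log2 ratios of 1.77 at 2000 UMIs and 0.64 between large barcodes, and *Shmt2*, an enzyme of one-carbon metabolism, had 1.59 and 0.87. The others were *Mif* (1.59 and 0.56), *Atp5g1* (1.59 and 0.52), *Cox7c* (1.57 and 0.97) and *Cenpw* (1.57 and 0.49), which encode a cytokine, 2 subunits of the respiratory chain and ATP synthase, and a centromere protein.

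**Figure D2:**
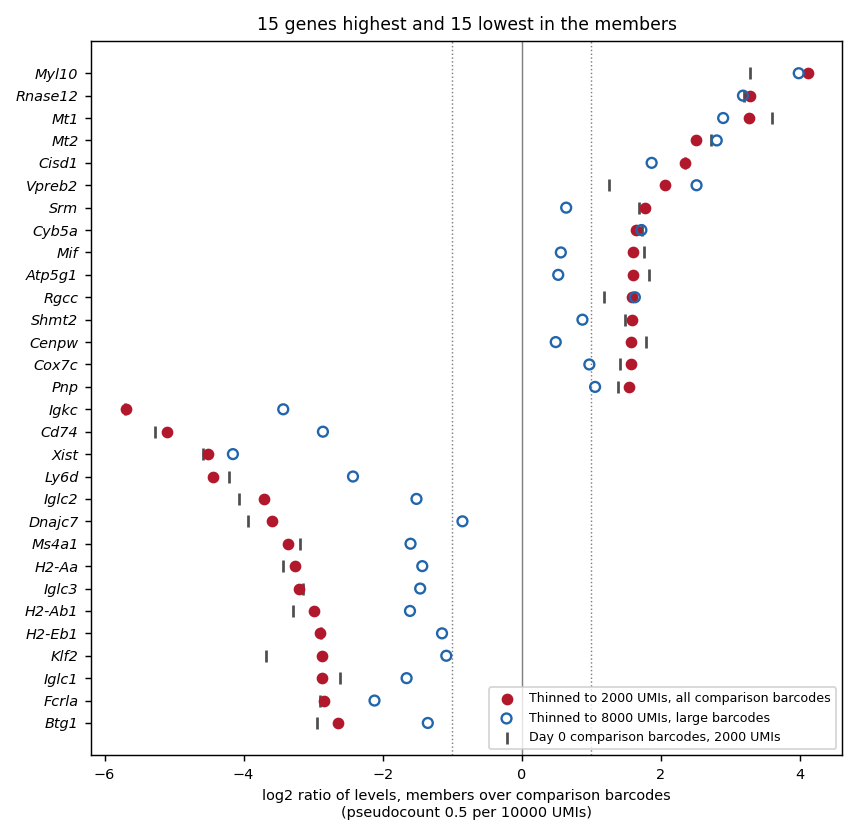
Log2 ratio of levels in members over comparison barcodes (horizontal axis, 0.5 per 10000 UMIs added) for the 15 genes with the largest and the 15 with the smallest ratio; dotted lines mark log2 ratios of −1 and 1. Filled points are the comparison at 2000 UMIs, open circles that between large barcodes and ticks the members against day 0 comparison barcodes. Of the upper genes 9 of 15 and of the lower genes 14 of 15 are past the fold between large barcodes.

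The pre-B cell receptor genes did not move as 1 group. *Vpreb2* had levels of 0, 5.28 and 18.8 in the lowest, median and highest member and log2 ratios of 2.05 and 2.51 in the 2 comparisons. *Vpreb1* had a log2 ratio of 0.53 at 2000 UMIs and 0.99 between large barcodes, and *Igll1* had 0.19 and 0.39. Both were in more members than comparison barcodes at 2000 UMIs, 85.7% against 27.2% for *Vpreb1* and 76.5% against 29.9% for *Igll1*. *Vpreb1* and *Vpreb2* are near-identical, and how the counting split their reads is uncertain.

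Of the 12 pre-B and B cell receptor genes listed, 10 passed the filter, 1 was higher and 5 were lower, with a median log2 ratio of −1.09. The lower genes included *Ighm*, the heavy chain (log2 ratio −2.29 at 2000 UMIs and −1.83 between large barcodes), *Cd79b*, the partner chain of *Cd79a* (−2.61 and −1.42), and the kinase *Syk* (−1.63 and −1.17). *Cd79a* had −1.45 and −0.22, and *Lyn*, another kinase of the receptor, −1.47 and −0.94. *Ighm* had 731 UMIs in 94 members, and it was in 57.1% of members and 13.1% of neutrophil barcodes at 2000 UMIs.

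Rearranged receptor genes gave few UMIs. Heavy chain variable segments had 48 UMIs over 17 genes in the members. *Ighv14-2* led with 17 UMIs in 16 members, 35.4% of these UMIs, and had 1 UMI in all 290 comparison barcodes. Kappa variable segments had 17 UMIs over 11 genes, and lambda variable, T cell receptor alpha variable and T cell receptor beta variable segments had 0. Near-identical segments share reads, so the split among them is uncertain.

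Transcripts of the T cell receptor gamma locus were abundant by comparison. They had 493 UMIs in 86 of the 99 members, against 6 UMIs in the 290 comparison barcodes and 1 in the 39 large ones. The constant gene *Tcrg-C2* took 280 of these in 75 members, *Tcrg-C4* 144 in 59 members, *Tcrg-C1* 36 in 14 members, and the variable gene *Trgv2* 33 in 27. At 2000 UMIs *Tcrg-C2* was in 16.3% of members (9.63 to 25.2%), 1.09% of comparison barcodes and 0.339% of neutrophil barcodes. The constant genes are near-copies of one another, so only their sum is firm, and *Cd3d* and *Cd3g*, which T cells need for a receptor, had 8 and 2 UMIs in the members.

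Of the 6 recombination genes listed, 2 passed the filter and 1 was lower, *Rag1*, and between large barcodes 0 of 1 was lower. *Rag1*, a subunit of the recombinase, was in 1.02% of members and 14.1% of comparison barcodes at 2000 UMIs, with 0.212% in neutrophil barcodes. *Rag2*, its partner, was in 0 of 98 members, which allows a share of up to 3.69% by the exact interval, and in 7.07% of comparison barcodes. *Dntt*, which adds bases at heavy chain junctions, was in 12.2% and 12.5%. Between large barcodes the log2 ratios were −0.22, −0.41 and −0.64 for the 3 genes. Without thinning, *Rag1* was in 9.09% of members and 23.1% of comparison barcodes, *Rag2* in 14.1% and 12.4%, and *Dntt* in 64.6% and 12.1%. Members were deeper, which raises such shares.

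Most genes of mature B cells that passed the filter were lower in the members at 2000 UMIs. Of the 19 listed, 15 passed the filter, 0 were higher and 13 were lower, with a median log2 ratio of −2.91. *Igkc*, the kappa constant region, was at 0, 0.339 and 7.74 in the lowest, median and highest member, and *Cd74*, the MHC class II chaperone, at 0, 0.3999 and 9.88. Their log2 ratios were −5.69 and −5.10. At 2000 UMIs *Igkc* was in 5.10% of members and *Cd74* in 10.2%, against 13.7% and 13.4% of neutrophil barcodes. These shares do not exceed the background at 2000 UMIs. Members were deeper than neutrophil barcodes before thinning, so the 2 groups may not be matched for free RNA. Without thinning *Igkc* was in 56.6% of members and 27.7% of neutrophil barcodes, and *Cd74* in 63.6% and 28.0%. Single members held up to 18 *Igkc* and 27 *Cd74* UMIs before thinning.

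*Ms4a1*, which encodes CD20, had 0 thinned UMIs in members and 170 in comparison barcodes, so it was at least 30.2-fold lower against a floor of 3 UMIs over the group. *Fcrla*, an Fc receptor-like protein of B cells, was likewise at 0 and at least 20.2-fold lower. *Ly6d*, a surface protein of B-lineage cells, had 3 thinned UMIs against 504 (89.5-fold lower, 30.4 to 435). The MHC class II genes *H2-Aa*, *H2-Ab1* and *H2-Eb1* had log2 ratios of −3.27, −2.98 and −2.91, and the lambda constant genes *Iglc2*, *Iglc3* and *Iglc1*, which are near-copies, −3.70, −3.21 and −2.87.

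The distance was smaller to the large comparison barcodes. Between large barcodes 8 of the 11 mature B genes that passed were lower and the median log2 ratio was −1.51. The summed level of the list had a median of 13.9 in members, 14.5 in large comparison barcodes and 125.5 in the other comparison barcodes. The highest large comparison barcode had 535 and the highest member 53.7, whereas the medians of the 2 groups lay close together.

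Early B receptors and surface proteins were mixed. Of the 14 listed, 7 passed the filter, 0 were higher and 3 were lower, with a median log2 ratio of −0.87, and between large barcodes 2 of 7 were lower with a median of 0.11. *Il7r*, the receptor for interleukin 7, had log2 ratios of −0.87 and −0.10 in the 2 comparisons, and *Cd93*, an antigen of immature B cells, 0.43 and 0.73. *Cd24a*, a surface protein high in precursors, was low in both (−1.95 and −2.15), with levels of 0, 2.21 and 9.15 in the lowest, median and highest member. *Cd72*, a B cell coreceptor, was also low in both (−2.53 and −1.57).

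Genes related to *Cdkn2a*, or next to it, had smaller differences. *Cdkn2b*, on one side of it on chromosome 4, had 2 UMIs in the 99 members, and *Mtap*, on the other side, had 136 UMIs in 62 members and log2 ratios of 0.51 and 0.52. *Cdkn2c* had −0.32 and −0.15, *Cdkn2d* −1.16 and −0.57, and *Cdkn1a*, a target of p53, had 62 UMIs in 34 members and log2 ratios of 0.01 and −0.70. Of the 29 cell cycle inhibitor and p53 pathway genes listed, *Cdkn2a* itself not counted, 9 passed the filter, 1 was higher and 1 was lower, with a median log2 ratio of 0.32.

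The higher gene of that list was *Ccnd3*, the D-type cyclin of precursor B cells, at 1.53, 7.23 and 21.6 in the lowest, median and highest member and with log2 ratios of 1.37 and 0.59. The lower one was *Cdkn2d*. *Trp53*, which encodes p53 (0.32 and −0.07), *Mdm2*, its inhibitor (−0.79 and −0.33), *Bax* (0.82 and 0.34) and *Ccng1* (−0.38 and −0.40), targets of p53, stayed within the fold. *Cdk4* (0.98 and 0.33) and *Cdk6* (0.85 and 0.18), the kinases that p16Ink4a binds, were within it too.

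Proliferation genes were detected in most members. *Mki67* or *Top2a*, made in dividing cells, had a UMI in 93 of 99 members (93.9%, 87.3 to 97.7%), in 34 of 39 large comparison barcodes (87.2%, 72.6 to 95.7%) and in 105 of 290 comparison barcodes (36.2%, 30.7 to 42.0%). Depth raises such shares, and at 2000 UMIs *Top2a* was in 39.8% of members, 29.3% of comparison barcodes and 7.50% of neutrophil barcodes.

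S phase genes differed in direction between the 2 comparisons. Of the 20 listed, 13 passed at 2000 UMIs, 1 was higher, *Cdca7* (1.28), and 0 were lower, with 11 of 13 above 0 and a median log2 ratio of 0.35. Between large barcodes 0 of 19 were past the fold, with 16 of 19 below 0 and a median of −0.22. Their summed level had a median of 24.98 in members, 29.1 in large comparison barcodes and 4.44 in the other comparison barcodes. Genes of G2 and mitosis had a summed level with a median of 23.7 in members (3.75 to 74.2), 48.9 in large comparison barcodes (0 to 159) and 5.27 in the other comparison barcodes. At 2000 UMIs 1 of 16 was lower and 0 were higher, with a median log2 ratio of −0.29, and against day 0 comparison barcodes 1 of 17 was higher and 0 were lower, with a median of 0.18. Of the 22 that passed between large barcodes, 21 had a log2 ratio below 0, with a median of −0.73, and 3 were past the fold.

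These 3 were *Tubb4b*, a tubulin (−1.46), *Nusap1*, a spindle protein (−1.19), and *Ccnb2*, a cyclin of mitosis (−1.09). The members varied among themselves in genes of mitosis. *Ube2c*, which drives exit from mitosis, ranged from 0 through a median of 1.14 to 18.1, and it varied with *Cenpa*, a centromere histone, over the 99 members (r = 0.732, rho = 0.682). The level of *Ube2c* also went with total UMIs (r = 0.413, rho = 0.457).

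Targets of MYC, which serve ribosome assembly, translation and metabolism, were high in the members at 2000 UMIs. Of the 35 listed, 26 passed, all 26 had a log2 ratio above 0 and 11 were higher by the fold, with a median of 0.90. *Ran*, a nuclear transport GTPase, had levels of 4.42, 20.9 and 38.4 in the lowest, median and highest member and a log2 ratio of 1.32. *Ncl*, which encodes nucleolin (1.38), *Nme1*, a nucleotide kinase (1.44), *Hspe1*, a mitochondrial chaperone (1.41), and *Gnl3*, a nucleolar GTPase (1.49), were among the 11.

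Between large barcodes 0 of 33 MYC targets were past the fold, although 29 were above 0 and the median was 0.38. The summed level was 74.1, 134 and 207 in the lowest, median and highest member and 27.3, 78.4 and 197 in the large comparison barcodes, which overlap over most of their range. *Myc* itself had 76 UMIs in 43 members and *Mycn* 42 UMIs in 29. The log2 ratio between large barcodes was 0.30 for *Myc* and 0.41 for *Mycn*, and both missed the filter.

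**Figure D3:**
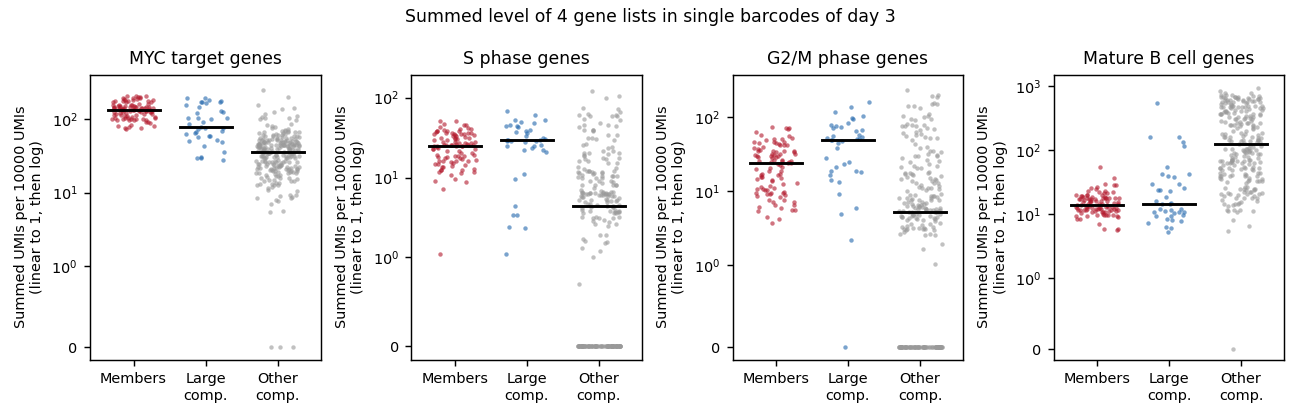
Summed level of 4 gene lists (vertical axis, UMIs per 10000 UMIs, linear up to 1 and logarithmic above) in single day 3 barcodes without thinning; bars are medians over 99 members, 39 large comparison barcodes and 251 other comparison barcodes. G2/M genes have a median of 23.7 in members and 48.9 in large comparison barcodes, and mature B cell genes 13.9 and 14.5.

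Immediate-early genes of the AP-1 family and its relatives, which respond within minutes to stress and tissue digestion, were low. Of the 18 listed, 12 passed at 2000 UMIs, 0 were higher and 7 were lower, with a median of −1.04. Between large barcodes 3 of 14 were lower, *Fos* (−1.81), *Jund* (−1.32) and *Klf2* (−1.09). Against the comparison barcodes of day 0, 15 of the 17 that passed were lower and the median was −1.92. The day 3 comparison barcodes were themselves lower than those of day 0 for 10 of 17 genes of the list, while 0.489% of all genes in that comparison were lower and 0.0816% higher.

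Genes of the STAT5 and ABL pathway gave little at this depth, and only 2 of 19 passed at 2000 UMIs. *Socs2*, a target of STAT5, was in 86 members, at 0, 1.40 and 4.49 in the lowest, median and highest, with a log2 ratio of 1.10 between large barcodes. *Abl1* had 49 UMIs in 41 members (log2 ratio 0.11 between large barcodes) and *Bcr* 39 UMIs in 31 (0.00). At counts this low, the amount added to both levels keeps the log2 ratio small even if comparison barcodes had no UMI. These ratios therefore cannot decide whether members held more of either gene. In addition, 3′ reads of *Abl1* and *Bcr* would not show a fusion. *Lmo4*, a transcriptional cofactor, was low in both comparisons (−1.39 and −1.34). Of 11 heat shock genes 6 passed and 1 was higher, the chaperone *Hsp90ab1* (1.22, and 0.28 between large barcodes). Of 11 survival genes 1 passed, *Mcl1*, an inhibitor of cell death, with −1.36 and −0.68.

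*Xist* (ENSMUSG00000086503, chrX:103460366-103483254, minus strand), the RNA that silences 1 X chromosome in female cells, was nearly missing. Of the members, 60 had 0 UMIs, 31 had 1 or 2, and the highest had 40. Its level was 0.357 (0.144 to 0.736) in members and 19.1 (17.7 to 20.6) in comparison barcodes at 2000 UMIs, a 53.5-fold difference (25.8 to 134). At that depth it was in 6.12% of members, 86.4% of comparison barcodes and 37.4% of neutrophil barcodes. Of the large comparison barcodes only 1 of 39 had no *Xist* UMI, and their median was 12.05.

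The 4 genes of the Y chromosome listed (*Ddx3y*, *Eif2s3y*, *Kdm5d* and *Uty*) had 0 UMIs in the members and in the comparison barcodes. All 360 UMIs placed on Y in members belonged to *Erdr1*, which lies in the part shared with X. The 2 members with at least 10 *Xist* UMIs, chosen after their values were seen, held 50 of the 120 *Xist* UMIs. The 2 differed in *Igkc* and *Cd74*. The member with *Xist* at 4.30 had levels of 7.74 and 9.885, whereas the member with *Xist* at 11.8 had 0 and 0.295. In the 60 members with no *Xist* UMI the medians were 0.345 and 0.507. Among *Ebf1* barcodes with at least 8000 UMIs, 73 of 213 had no *Xist* UMI at day 3, against 3 of 98, 3 of 182, 2 of 181 and 0 of 29 at days 0, 6, 9 and 12. Of the 73, only 16 were not members, so most of this count is the members themselves.

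Genes of chromosome 5 stood apart between large barcodes when the genes were grouped by chromosome, a grouping made after the results were seen. Their median log2 ratio between large barcodes was 0.16, and 175 of 258 were above 0. The medians of the other autosomes lay between −0.09 and 0.01 there, and that of X was −0.10. In the first comparison chromosome 5 was still the highest autosome, at 0.17 with 104 of 158 genes above 0. Chromosome 13, at −0.27 with 26 of 73 above 0, and X, at −0.18, lay further from 0 on the lower side. By distance from 0, chromosome 5 therefore did not stand apart in the first comparison. In single barcodes with at least 8000 UMIs, chromosome 5 took 6.79, 7.92 and 8.77% of UMIs of placed nuclear genes in the lowest, median and highest member. The 39 large comparison barcodes had 4.70, 5.95 and 7.62%. Of the members, 69 of 91 lay above the highest comparison barcode, and 3 of 39 comparison barcodes lay at or above the lowest member. For each other chromosome between 0 and 2 members lay above the highest comparison barcode.

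Deep comparison barcodes of the other days had a median of 5.72, 5.93, 5.76 and 5.51% of UMIs on chromosome 5 at days 0, 6, 9 and 12. The highest of them was at 6.94% at day 0, 7.03% at day 6, 12.9% at day 9, which is above every member, and 6.26% at day 12. *Myl10* and *Tmem119* lie on this chromosome, and without them the members still had a median of 7.65% and day 3 comparison barcodes 5.93%. For the other chromosomes the median share in members minus that in large comparison barcodes lay between −0.463 percentage points for X and 0.397 for chromosome 13. Along chromosome 5 the ratio was uneven. The 21 genes that start before 30 Mb and the 39 from 30 to 60 Mb had medians of −0.06 and −0.03, whereas the 24 from 60 to 90 Mb, the 64 from 90 to 120 Mb and the 106 from 120 to 150 Mb had 0.22, 0.26 and 0.18.

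**Figure D4:**
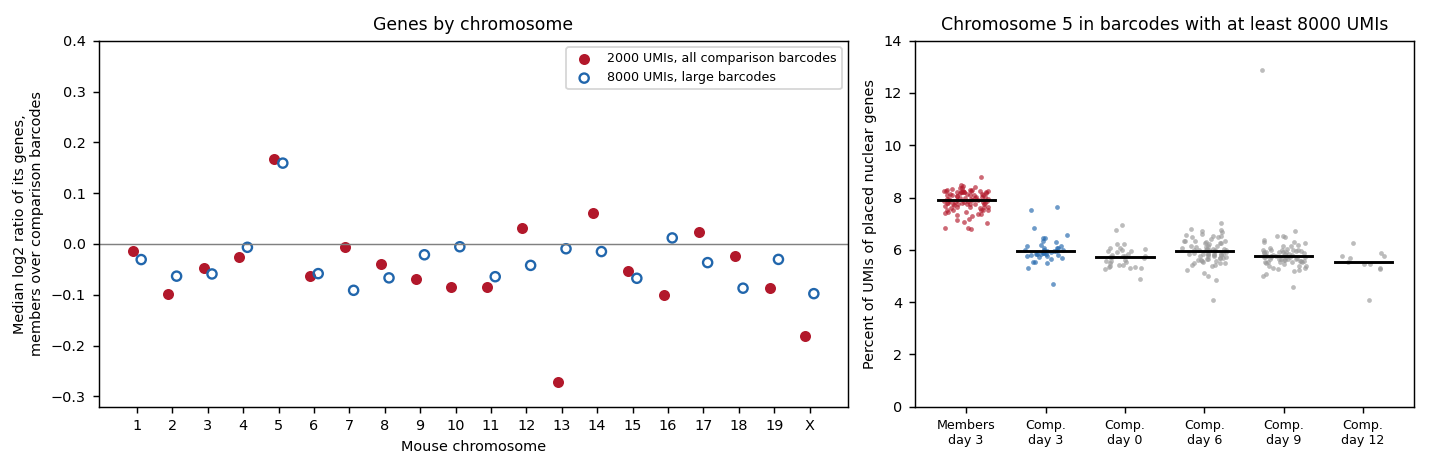
Left, median log2 ratio (members over comparison barcodes) of the genes of each mouse chromosome, filled points at 2000 UMIs and open circles between large barcodes. Right, percent of UMIs of placed nuclear genes that fall on chromosome 5 in single barcodes with at least 8000 UMIs, with medians as bars; the 91 members have a median of 7.92% and day 3 comparison barcodes 5.95%.

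The members resembled each other in genes that the rule did not use. Among the 465 day 3 barcodes with *Ebf1* and at least 2000 UMIs, 15 principal components were computed without *Ebf1*, *Cdkn2a*, *Tmem119* and *Vpreb3*, and 21.1% of these barcodes were members. For 95 of 98 members at least 50% of the 20 nearest barcodes were members, with a median of 80.0%. The same held for 4 of 184 comparison barcodes and 1 of 152 barcodes with *Ebf1* and none of the other 3 genes.

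Barcodes that lacked 1 of the 2 rule genes often sat among the members. This was so for 15 of 21 with *Cdkn2a* only and 6 of 10 with *Tmem119* only. The 21 barcodes of both kinds that sat among members had a median *Myl10* level of 13.96, *Rnase12* of 4.19 and *Mt1* of 9.04. All 21 held *Myl10*, and 5 held *Xist*. The 10 that did not sit among members had a median *Myl10* level of 0 and 9 held *Xist*. The components left out only *Ebf1*, *Cdkn2a*, *Tmem119* and *Vpreb3*. *Myl10*, *Rnase12*, *Mt1* and *Xist* could thus shape which barcodes were neighbours, and their values here are a description. The 15 among members with at least 8000 UMIs had 7.13 to 8.21% of UMIs on chromosome 5 (median 7.64%). The 7 of that depth not among members had 2.44 to 7.62% (median 5.37%), so the ranges overlap.

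**Figure D5:**
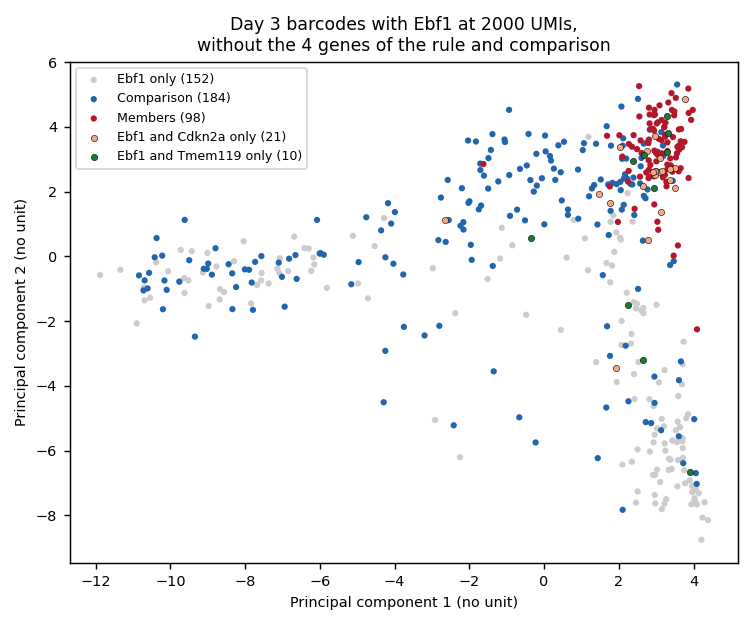
First 2 principal components (no unit) of 465 day 3 barcodes with *Ebf1*, thinned to 2000 UMIs and without *Ebf1*, *Cdkn2a*, *Tmem119* and *Vpreb3*; each point is a barcode, coloured by which of these genes it held. The 98 members lie mostly in 1 corner with 15 of 21 barcodes that held *Cdkn2a* only, and comparison barcodes spread over the whole plot.

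Counts by day were also made without the rule genes *Cdkn2a* and *Tmem119*. Barcodes with a UMI each of *Ebf1*, *Myl10* and *Rnase12* numbered 125 at day 3 and 5, 6, 8 and 2 in the libraries of day 0, day 6, day 9 and day 12. This set of genes was chosen after their values were seen and keeps the rule gene *Ebf1*. Of the 125 barcodes, 96 were members, so the day 3 count is not separate from the rule. Barcodes with *Ebf1* numbered 661 at day 3 and 1208, 1230, 1096 and 190 at days 0, 6, 9 and 12. Free RNA, taken from barcodes with at most 100 UMIs, held *Rnase12* at 0.511 per 10000 at day 3 and at 0.00256 to 0.0413 at the other days, and *Myl10* at 1.98 against 0.110 to 0.248. *Mt1* was at 1.20 at day 3 and 1.06 at day 0. Of the member barcode sequences, 0, 1, 1 and 2 also occurred in the libraries of days 0, 6, 9 and 12, and 0 of these were comparison barcodes there.

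Against the comparison barcodes of other days, which are other mice, the members gave these values. At 2000 UMIs, 119 of 3034 genes were higher than at day 0 (3.92%) and 302 were lower (9.95%). All 15 upper and 15 lower genes named above were past the fold against days 0, 6 and 9, and all but *Pnp* (0.92) were against day 12, which had 43 comparison barcodes. Of all genes, 3.14% were higher and 6.64% lower against day 6, 2.68% and 5.95% against day 9, and 9.19% and 8.56% against day 12. *Vpreb1* differed in sign by day, with log2 ratios of −0.18, 1.29, 0.40 and −0.38 against days 0, 6, 9 and 12. These comparisons share the members, so they are not independent.

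Markers of other cell types were checked as whole lists. T cell and NK cell genes had 1 and 3 thinned UMIs in the 98 members, plasma cell genes 3, erythroid genes 3 and endothelial genes 2. Plasmacytoid dendritic cell genes had 31, progenitor genes 18 and microglia and macrophage genes 8. The summed progenitor level had a median of 0.496 and reached 52.3 in the highest member. Of the 6 microglia and macrophage genes, 2 had 0 UMIs in the members, *P2ry12* and *Sall1*, which define microglia. The 7 stromal and osteoblast genes had 16 thinned UMIs, of which *Alpl*, alkaline phosphatase, took 10 and was in 77 members before thinning, while *Sp7* had 0 UMIs and *Col1a1* and *Runx2* 1 and 2 before thinning. The 6 neutrophil genes summed to a median of 132 in members (100 to 2234) and 135 in large comparison barcodes (94.4 to 194), and the 6 monocyte genes to 10.2 (6.06 to 138) and 10.3 (6.02 to 526). All 6 neutrophil genes were lower in members at 2000 UMIs (median log2 ratio −1.76) and 0 of 6 between large barcodes (−0.06), and 3 of 5 monocyte genes that passed were lower between large barcodes (−1.71). The part of these UMIs in the differences was not tested.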

How the data were processed

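Droplet RNA libraries (10x Genomics 3′ v2) of 5 mice, 1 mouse per day, were analysed. The values are UMI counts per gene and barcode that the authors deposited unfiltered after Cell Ranger (version 2.1.1 per the study methods), with build mm10 per the submitters' processing notes. Ambient RNA was not removed, no doublet caller was run, and gene positions are from GENCODE on GRCm38.

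Barcodes with at least 500 UMIs and at most 10% mitochondrial UMIs were kept. Counts were thinned to 2000 UMIs per barcode and summed per group. Log2 ratios used 0.5 per 10000 UMIs as pseudocount, genes with at least 30 thinned UMIs, and a log2 ratio of 1 as the fold. Genes named are the 15 highest and 15 lowest, without the rule genes and immunoglobulin variable segments, plus the markers and listed genes. Neighbours used 1000 variable genes, 15 components and 20 neighbours. With 1 mouse per day no test was possible. Intervals (95%) cover counting error only, and floors are 3 UMIs. The members, lists and tests were chosen with earlier results of these data known.

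Python 3.11.15, numpy 2.4.6, scipy 1.17.1, pandas 2.3.3 and edgeR 4.0.16 (TMM scaling as an alternative only) were used. On simulated counts for members against comparison barcodes over 2120 genes, 50 genes raised 4-fold had a median absolute log2 error of 0.0825 and 50 lowered to 0.25 of their level had 0.132. Of the 50 genes raised 2-fold, 0.0% passed the fold, and of the 50 lowered to 0.5 of their level, 34.0% did, so the fold was not passed equally often in the 2 directions. Alternatives were depth, pairing by UMIs, seed, pseudocount, filter, scaling, stricter rules and other comparison barcodes.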

Additional observations from a re-analysis of the deposited data

How the results depend on the processing

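No paired analysis was possible because each day is 1 mouse with no replicate, and no library could be left out for the same reason. None of the 15 highest genes, the 15 lowest genes, *Cdkn2a* and *Tmem119* changed direction under the 18 alternatives that gave a value. Of their 576 log2 ratios, 411 stayed within the counting interval and 165 did not. Part of this was fixed in advance. Comparison barcodes held no UMI of *Cdkn2a* or *Tmem119*, so these genes could not change direction. A change of filter cannot alter a ratio, so all 32 ratios stayed under each filter setting. A change of pseudocount cannot turn a sign. Counts of genes past the fold (83 higher, 202 lower) became 177 and 364 with a pseudocount of 0.1, 44 and 117 with 1, and 38 and 92 with at least 100 thinned UMIs. They were 27 and 88 between large barcodes, and 120 were lower among barcodes with *Mki67* or *Top2a*. MYC targets higher (11) became 6 with *Mki67* or *Top2a* and 0 between large barcodes. Mature B genes lower (13) became 8 at 4000 UMIs, with *Mki67* or *Top2a* and between large barcodes. Immediate-early genes lower (7) became 3 with a pseudocount of 1, with at least 100 thinned UMIs and between large barcodes, 4 with *Mki67* or *Top2a* and 15 against day 0. Receptor genes lower (5) became 3 when paired by total UMIs, with at least 100 thinned UMIs and between large barcodes, and 2 with *Mki67* or *Top2a*. B-lineage factors lower (6) became 3 when paired, with a pseudocount of 1 and with a mitochondrial limit of 5%, 2 between large barcodes and 1 with at least 100 thinned UMIs. G2/M genes lower (1) became 0 at 1000 UMIs, without thinning, with a pseudocount of 1, with at least 100 thinned UMIs and against day 0, 2 with another seed or a pseudocount of 0.1, 3 without barcodes of 2% neutrophil UMIs and between large barcodes, 4 when paired or with *Mki67* or *Top2a*, and 5 at 4000 UMIs. S phase genes higher (1) became 3 at 1000 UMIs, 2 without thinning, without comparison barcodes among members and against day 0, and 0 at 4000 UMIs, when paired, with another seed, with a pseudocount of 1, with at least 100 thinned UMIs, with at least 2 UMIs of *Cdkn2a* and *Tmem119*, with a mitochondrial limit of 5%, without barcodes of 2% neutrophil UMIs and between large barcodes. Without thinning, shares of members with a UMI were 97.0% for *Rnase12*, 89.9% for *Mt2* and 39.4% for *Xist*. List medians turned in sign for S phase genes (0.35 at 2000 UMIs, −0.22 between large barcodes), G2/M genes (−0.29, and 0.18 against day 0) and early B receptors (−0.87, and 0.11 between large barcodes). The cause of these changes was not tested. Leaving out barcodes with a UMI of *Lyz2*, *Ngp*, *Cd3d* or *Siglech* left 0 members and gave no value. Large barcodes, day 0 barcodes, the neutrophil limit and the values by chromosome were chosen after seeing the data. Paired comparison barcodes had a median of 8520 UMIs, still below the members.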
